A study of Mus musculus with 50 samples.

Results

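The complement genes described here are the 9 rows with the symbols C1qa, C1qb, C1qc, C1ra, C1s1, C2, C4b, C3 and Cfb, out of 23880 genes in the count table of a mouse muscle aging series. They were chosen by symbol, as components of the classical and alternative pathways. Poly(A) RNA of the gastrocnemius, a calf muscle, was sequenced from 50 wild-type male C57BL/6JRj mice aged 8, 18, 22 or 24 months (n = 8 for each of these ages) and 26 or 28 months (n = 9 for each). All were housed singly and fed the AIN93M diet, and mice with overt illness or tumors at dissection were left out by the study. The mice of 22 to 28 months had been on that diet from about 18 months of age, whereas the mice of 8 and 18 months were moved to it before the endpoint, so each comparison with 8 months also crosses a difference in diet history. The comparison of 28 with 22 months keeps the age at which the diet began, but the older mice had been on it for longer. No treatment or genetic change was made, and each library is 1 whole muscle sample with all the cell types it held.

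Complement is a cascade of blood and tissue proteins that tags cells, debris and microbes and draws in phagocytes. In the classical pathway, C1q, built from the chains encoded by C1qa, C1qb and C1qc, binds a surface or an immune complex and activates the proteases C1r and C1s. C1s cleaves C4 and C2, which together form an enzyme that cleaves C3, the component shared by all pathways; in the alternative pathway, factor B takes the place of C2. The liver makes most circulating complement, but C1q is made chiefly by macrophages, and C1r, C1s, C3 and C4 are also made by fibroblasts and other tissue cells.

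The 9 genes lie at 4 places in the genome (GRCm38, GENCODE annotation). C1qb (chr4:136880129-136886187), C1qc (chr4:136889804-136893065) and C1qa (chr4:136895917-136898803) stand in a row on the minus strand within 18.7 kb. C1ra (chr6:124512405-124523443, plus strand) and C1s1 (chr6:124530345-124542359, minus strand) are 6.9 kb apart. C4b (chr17:34728380-34743882), Cfb (chr17:34856374-34862518) and C2 (chr17:34862604-34898265) lie in the major histocompatibility region on the minus strand, with 85 bases between Cfb and C2. C3 (chr17:57203970-57228136, minus strand) is on the same chromosome but far from them.

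Sequence before the transcription start was found in RefSeq windows (GRCm38.p6) for 5 of the 9 genes, C1qb, C1qc, C1ra, C1s1 and C3. The C1qb and C1qc stretches are shown because the C1q chains were the genes that varied most closely together among mice, and the C3 stretch because C3 is described below together with C4b and Cfb. Each is written 5′ to 3′ on the strand of the gene and ends before its first exon. C1qb is chr4:136886201-136886450, C1qc is chr4:136893066-136893164 and C3 is chr17:57228137-57228386. Capitals mark the ETS core AGGAAG on either strand (CTTCCT on the other) in the C1q genes, the core bound by PU.1, a factor of macrophages, and the C/EBP-type motif TTNNGNAA in C3, which was searched on both strands.
C1qb: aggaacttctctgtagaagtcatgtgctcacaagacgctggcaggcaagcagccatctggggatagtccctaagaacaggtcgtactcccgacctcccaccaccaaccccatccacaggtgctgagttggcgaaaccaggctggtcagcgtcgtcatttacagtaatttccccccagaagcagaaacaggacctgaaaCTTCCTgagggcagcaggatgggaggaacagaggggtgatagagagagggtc
C1qc: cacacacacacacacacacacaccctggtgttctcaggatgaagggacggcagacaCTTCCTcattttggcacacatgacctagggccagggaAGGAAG
C3: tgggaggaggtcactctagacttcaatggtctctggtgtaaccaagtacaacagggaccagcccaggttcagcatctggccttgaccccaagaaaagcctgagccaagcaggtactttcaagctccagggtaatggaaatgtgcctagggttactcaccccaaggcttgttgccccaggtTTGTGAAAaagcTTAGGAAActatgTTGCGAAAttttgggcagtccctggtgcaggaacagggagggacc

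The ETS core occurred in 29.5% and the C/EBP-type motif in 36.8% of all 32851 windows of 250 bases, so a single match is common. The ETS core was also matched in the window of C1s1, and the C/EBP-type motif in those of C1ra, C1s1 and C1qc (there outside the stretch shown), so neither motif separates the genes into sets. An interferon-stimulated response element (in 2.98% of windows), a STAT element (TTCNNNGAA, 7.02%) and an NF-kB element (1.41%) were not matched in the windows of these 5 genes. A match is a stretch of letters and not a measured binding site.

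Libraries held between 13607229 and 21267375 counts, and all 9 genes were counted in every mouse, from 50 counts (the lowest value of C2) to 5248 counts (the highest value of C3). Genes of skeletal muscle fibres made up much of the RNA, with 8 of them summing to between 134524 and 160540 TPM at 8 months. Expression is given as TPM (transcript abundance corrected for length and scaled to the library), a per-length scale on which genes can be compared, and differences between ages as log2 fold changes of normalized counts, with their standard error (SE) and false discovery rate (FDR) from edgeR's quasi-likelihood test over 12586 genes. A gene was called at an FDR below 0.01. Read sharing between similar genes differs among the 9, since a read matching several transcripts was divided equally among them. No stretch of 31 bases in the transcripts of C1qa, C1qb, C1qc or C3 occurs in another protein-coding gene. For C4b, 48.8% of such stretches also occur in C4a, for C1ra 56.9% in C1rb and for C1s1 35% in C1s2. For Cfb 76.3% and for C2 53.2% also occur in Gm20547, a gene model that runs through both and was not analysed here. Whether reads of C2 and Cfb were divided with it is not given in the sources used here.

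At 8 months, C3 was the most abundant of the 9 transcripts at 53.1 ± 14.1 TPM (SD, n = 8), followed by C1s1 at 48.5 ± 8.29 TPM. The C1q chains lay close to each other, with C1qa at 30.1 ± 6.39, C1qb at 29.9 ± 5.35 and C1qc at 25.6 ± 4.92 TPM. C1ra (14.3 ± 2.51 TPM) and C4b (12.8 ± 3.56 TPM) came next, and C2 (5.54 ± 1.45 TPM) and Cfb (5.52 ± 1.73 TPM) were lowest. Ranges of neighbours in this order overlapped at each step. Within mice, C3 exceeded C1s1 in 5 of 8, C1s1 exceeded C1qa in 8 of 8, C1qb exceeded C1qc in 8 of 8 and C1ra exceeded C4b in 5 of 8, whereas C1qa and C1qb, and C2 and Cfb, were each the higher in 4 of 8. At 28 months the order of the means had changed for C4b, for the C1q chains and for C2 and Cfb, with Cfb above C2 in 7 of 9 mice. C3 stayed highest in the mean at 69.5 ± 18.0 TPM (n = 9), C1qb came second, and C4b (36.6 ± 11.7 TPM) lay above C1ra (13.9 ± 1.88 TPM) in 9 of 9 mice, with no overlap between the 2 genes.

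**Figure D1:**
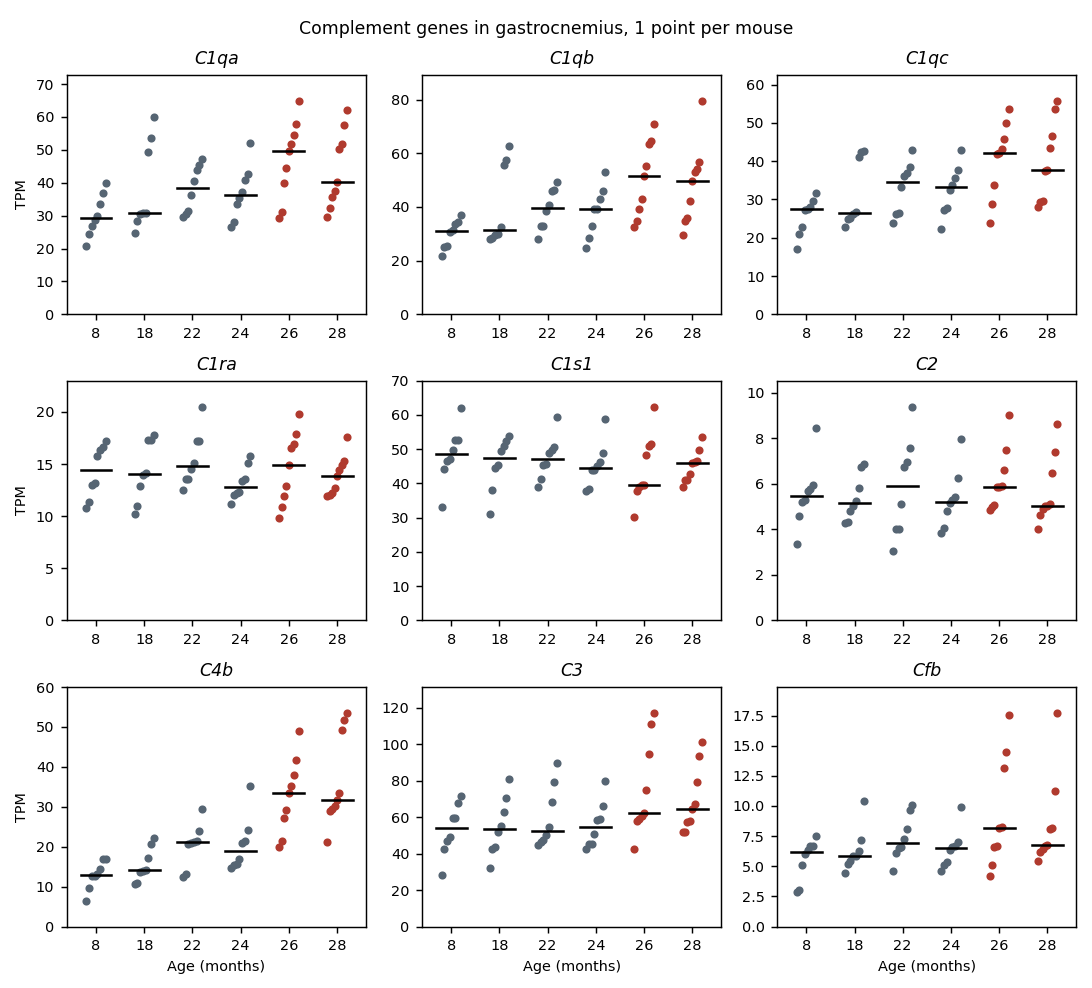
TPM (y axis, linear from 0, own scale for each gene) against age in months (x axis) for the 9 complement genes, with 1 point per mouse and a line at the median of each age; 26 and 28 months are in red. C4b at 26 and 28 months lies above all mice of 8 months, the C1q chains rise with much overlap, and C1ra, C1s1 and C2 show no comparable shift.

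C4b, the mouse gene for complement C4, showed the largest increase of the 9 genes with age. Its level ran from 6.32 to 16.9 TPM with a median of 13.0 at 8 months, from 10.7 to 22.1 (median 14.1) at 18 months, from 12.5 to 29.4 (median 21.1) at 22 months and from 14.7 to 35.1 (median 19.0) at 24 months. At 26 months it ran from 20.0 to 48.9 TPM (median 33.4), and at 28 months from 21.3 to 53.4 TPM (median 31.7). All 9 mice of 26 months and all 9 of 28 months lay above the highest mouse of 8 months, whereas the groups of 18, 22 and 24 months overlapped with it. C4b was 2.83-fold higher at 28 than at 8 months (log2 fold change 1.50, SE 0.21, FDR = 2.58e-07) and 2.62-fold higher at 26 months (1.39, SE 0.21, FDR = 5.28e-06). It was the only one of the 9 genes called between 28 and 22 months, where the age at the start of the diet was shared. The log2 fold change was 0.83 (SE 0.20, FDR = 0.00123), and 7 of 9 mice of 28 months lay above the highest of 22 months. Among all genes tested, 27.7% were called in that comparison, 16.2% higher and 11.5% lower. At 22 and 24 months the log2 fold changes of C4b against 8 months were 0.67 (FDR = 0.189) and 0.68 (FDR = 0.0614) and were not called. The file lists C4a, a close copy of C4b, at 0.644 ± 0.290 TPM at 8 months and 1.73 ± 0.774 TPM at 28 months, and with the counts of both genes summed the log2 fold change from 8 to 28 months was again 1.50 (FDR = 2.76e-07).

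The C1q chains rose together. C1qb ran from 21.6 to 36.9 TPM (median 31.1) at 8 months, from 32.7 to 70.9 TPM (median 51.6) at 26 months and from 29.7 to 79.4 TPM (median 49.7) at 28 months. The groups overlapped, with 7 of 9 mice of 26 months and 6 of 9 of 28 months above the highest mouse of 8 months. C1qb was 1.66-fold higher at 26 months (log2 fold change 0.73, SE 0.18, FDR = 0.00218) and 1.52-fold higher at 28 months (0.60, SE 0.18, FDR = 0.00464). C1qc had a median of 27.4 TPM at 8 months, 42.0 at 26 months and 37.7 at 28 months, with log2 fold changes of 0.62 (SE 0.16, FDR = 0.00276) and 0.56 (SE 0.16, FDR = 0.00294). C1qa had medians of 29.2, 49.5 and 40.3 TPM at these ages. It was called at 26 months (0.62, SE 0.17, FDR = 0.00554) but not at 28 months (0.47, SE 0.17, FDR = 0.0201). Between 22 and 28 months none of the 3 chains was called, and their log2 fold changes lay at 0.16 for C1qa, 0.24 for C1qb and 0.23 for C1qc. In a whole muscle sample, more cells that express a gene and more RNA of it per cell cannot be told apart.

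At 18 months the C1q chains split the mice. C1qb lay between 55.8 and 62.5 TPM in 3 mice and between 28.0 and 32.7 TPM in the other 5. C1qa lay between 49.2 and 59.9 TPM in the same 3 mice and between 24.7 and 30.9 TPM in the others, and C1qc between 41.0 and 42.6 against 22.8 to 26.8 TPM. These were replicates 5, 6 and 7, and their levels reached those of the mice of 26 months. The summed TPM of 13 macrophage marker genes in these mice was 90.0, 130 and 101, against 52.0 to 95.6 in the other 5, with overlap. The summed TPM of 15 interferon response genes separated the same mice, with 93.3, 356 and 155 against 51.9 to 88.5. At 18 against 8 months 2 of these 15 genes, Irf7 (log2 fold change 2.25, FDR = 0.00719) and Ifit1 (1.62, FDR = 0.00472), were called higher. Among all genes tested, 0.0715% were called in that comparison. The sums of adipocyte markers (226 to 317 against 161 to 201 TPM) and hepatocyte markers (1.14 to 1.77 against 0.410 to 0.886 TPM) also did not overlap. The adipocyte sum was led by Plin4, which is also present in muscle fibres, and none of the 7 hepatocyte genes had enough counts to be tested. Sums of the other 9 of the 12 lists of marker and response genes overlapped. The part of these differences between mice in the C1q values was not tested. The split was taken from the C1q values after seeing the data, and how many of all genes it would separate was not counted.

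Some macrophage markers were higher along with the C1q genes. Of 13 tested, 5 were called higher and none lower at 28 against 8 months, where 21% of all genes were called higher. Without replicate 2 of 28 months, which is described below, 3 were called. Aif1 and Folr2 had log2 fold changes of -0.21 and -0.13 and were not called. The summed level of the list ran from 53.4 to 83.7 TPM at 8 months and from 75.2 to 227 TPM at 28 months, with Folr2 the most abundant of the list at 8 months and Cd163, a scavenger receptor of resident macrophages, at 28 months. Divided by this sum, C1qb had a median of 0.422 (0.302 to 0.584) at 8 months, 0.480 (0.390 to 0.579) at 26 months and 0.414 (0.349 to 0.524) at 28 months, and C1qa of 0.434, 0.439 and 0.393. The same quotient for C4b had a median of 0.177 (0.107 to 0.252) at 8 months, 0.293 (0.203 to 0.445) at 26 months and 0.334 (0.235 to 0.380) at 28 months. The medians of C1qa, C1qb, C1qc, C2, C3 and Cfb at 26 and 28 months lay within the 8 months range of each gene's quotient. Those of C4b lay above its range. Those of C1ra and C1s1 lay below theirs, with medians of 0.206 and 0.666 at 8 months and 0.128 and 0.432 at 28 months. These quotients were not tested.

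The proteases of the C1 complex did not show a called change. C1ra ran from 10.8 to 17.2 TPM (median 14.5) at 8 months and from 11.9 to 17.6 TPM (median 13.9) at 28 months, with a log2 fold change of -0.10 (95% confidence interval -0.33 to 0.12, FDR = 0.442). C1s1 ran from 33.0 to 62.0 TPM (median 48.6) at 8 months and from 39.1 to 53.5 TPM (median 45.9) at 28 months, with a log2 fold change of -0.21 (-0.38 to -0.03, FDR = 0.0393). The ranges of both genes at 28 months lay almost wholly inside those at 8 months. Fibroblast markers, from cells that also express C1r and C1s, were called lower at 28 months in 8 of 10 tested, where 18.7% of all genes were called lower. Their summed level was 1805 to 2756.5 TPM at 8 months and 1286 to 1857 TPM at 28 months, led by Gsn at each age. The part of this in the values of C1ra and C1s1 was not tested.

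C2, the protease of the classical C3 convertase, ran from 3.35 to 8.47 TPM (median 5.47) at 8 months and from 4.03 to 8.62 TPM (median 5.04) at 28 months. Its log2 fold change was -0.0098 (95% confidence interval -0.37 to 0.35, FDR = 0.968), and the 2 groups covered almost the same range. Cfb, its counterpart in the alternative pathway, ran from 2.89 to 7.53 TPM (median 6.18) at 8 months, from 4.20 to 17.5 TPM (median 8.14) at 26 months and from 5.47 to 17.7 TPM (median 6.77) at 28 months. It was called at 26 months (log2 fold change 0.76, SE 0.23, FDR = 0.00847) but not at 28 months (0.55, SE 0.23, FDR = 0.0368). The call at 26 months was near the threshold and was lost in 9 of the 17 fits that left out 1 mouse, with FDR values from 0.00437 to 0.0359 over these fits; the highest came without replicate 3 of 26 months, where the log2 fold change was 0.59. In Cfb a few mice stood high in the oldest groups, with 3 of 9 above 13 TPM at 26 months and 1 of 9 at 28 months.

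C3 ran from 28.5 to 71.4 TPM (median 54.1) at 8 months, from 42.7 to 117 TPM (median 62.3) at 26 months and from 52.0 to 101 TPM (median 64.5) at 28 months. Its log2 fold changes of 0.50 at 26 months (SE 0.18, FDR = 0.0261) and 0.32 at 28 months (SE 0.18, FDR = 0.126) were not called, and 4 of 9 and 3 of 9 mice lay above the highest mouse of 8 months. Hepatocyte markers were near absent. The summed TPM of the 7 listed was between 0.311 and 1.25 at 8 months and between 0 and 0.956 at 28 months, with Fga and Fgb at 0 in all mice of both ages.

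Over the 9 genes, 5 were called higher at 26 against 8 months, C1qa, C1qb, C1qc, C4b and Cfb, and none lower, where 18.4% of all genes tested were called, 9.84% higher and 8.55% lower. At 28 against 8 months 3 were called, C1qb, C1qc and C4b, all higher, where 39.6% of all genes were called, 21% higher and 18.7% lower, so the count of members at 28 months is near the share of the whole table. The median log2 fold change of the 9 genes was 0.62 at 26 months and 0.47 at 28 months, beside -0.00095 and 0.0072 over all genes tested. The counts depend on single mice. At 26 months 3 genes (C1qb, C1qc and C4b) were called without replicate 5, 6 or 8 of 8 months or without replicate 3 of 26 months, and at 28 months C4b was the only gene called without replicate 6 of 8 months. The call of C1qb at 28 months was lost in 6 of 17 fits (FDR up to 0.0157), those without replicate 5, 6 or 8 of 8 months or replicate 1, 2 or 9 of 28 months. C1qa was called at 28 months in 2 of 17, those without replicate 1 of 8 months or replicate 4 of 28 months. C4b was called in all 17 fits at each of these ages.

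None of the 9 genes was called at the younger ages or between neighbouring ages with edgeR or with DESeq2 or limma. Against 8 months, 0.0715% of all genes were called at 18 months, 0.0397% at 22 months and 0.612% at 24 months. The members with an unadjusted edgeR p under 0.05 were C1qb at 18 months, C1qc and C4b at 22 months, and C4b at 24 months. Between neighbouring ages, 0.00795% of all genes were called at 22 against 18 months and 0% at the 3 later steps. At an unadjusted p under 0.05 there was no member at 22 against 18 months, 1 member (C1ra) at 24 against 22 months, 4 members at 26 against 24 months and none at 28 against 26 months. From 24 to 26 months all 9 genes had a log2 fold change above 0, though that of C1s1 was only 0.00026 (SE 0.087). C4b was highest with 0.70 (SE 0.20, FDR = 0.0799), followed by Cfb with 0.54 (SE 0.22, FDR = 0.191), C3 with 0.43 (SE 0.18, FDR = 0.183) and C1qb with 0.40 (SE 0.18, FDR = 0.235). From 8 to 18 months C1qb had 0.42 (SE 0.18) and C4b 0.30 (SE 0.21). From 26 to 28 months 8 of the 9 values were below 0, down to -0.21, and C4b was at 0.11 (SE 0.19).

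**Figure D2:**
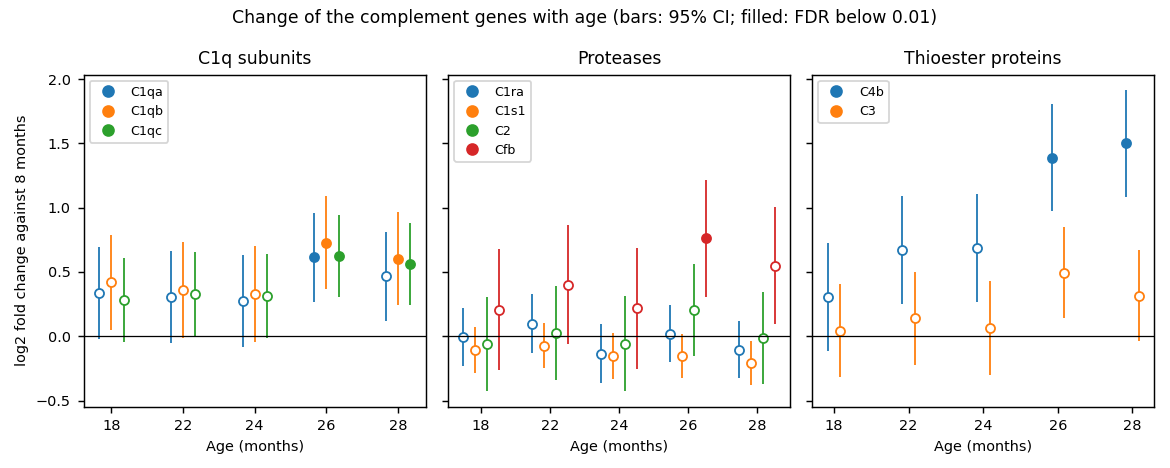
Log2 fold change against 8 months (y axis) at 18, 22, 24, 26 and 28 months (x axis) for the C1q chains, the proteases and the thioester proteins C4b and C3, with 95% confidence intervals; filled points have an FDR below 0.01. C4b reaches 1.39 and 1.50 at 26 and 28 months, the C1q chains lie between 0.47 and 0.73 there, and the values at all ages share the same 8 mice of 8 months.

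Ratios within each mouse show which of these genes kept step. The difference between 28 and 8 months was tested for 6 ratios with a two-sided exact permutation test over 8 and 9 mice, and p-values were adjusted over the 6. The log2 ratio of C4b to C3, 2 homologous proteins that attach to surfaces through a thioester bond, ran from -2.48 to -1.75 at 8 months and from -1.29 to -0.63 at 28 months, without overlap. Its mean rose by 1.10, from -2.05 ± 0.30 to -0.95 ± 0.22 (exact permutation p = 4.11e-05, the smallest this design can give; adjusted p = 0.000247). The log2 ratio of C4b to C1qb rose by 0.84, from -1.25 ± 0.56 to -0.41 ± 0.29 (exact permutation p = 0.000617, adjusted p = 0.00185), with 5 of 9 mice of 28 months above the highest of 8 months. C4b transcripts thus increased more than those of C3 and of C1qb in the same muscles.

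The other 4 ratios were not called. Among the chains of C1q, the log2 ratio of C1qa to C1qb was 0.00248 ± 0.125 at 8 months and -0.12 ± 0.16 at 28 months (adjusted exact permutation p = 0.157). That of C1qc to C1qb was -0.23 ± 0.11 and -0.25 ± 0.16 (adjusted exact permutation p = 0.720). That of C1ra to C1s1 was -1.76 ± 0.14 and -1.70 ± 0.10 (adjusted exact permutation p = 0.359). The SDs of these ratios lay between 0.10 and 0.16 in log2 units. The log2 ratio of C2 to Cfb was 0.038 ± 0.48 and -0.52 ± 0.60, a difference of -0.55 (exact permutation p = 0.0483, adjusted p = 0.0965), with 5 of 9 mice of 28 months below the lowest of 8 months.

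**Figure D3:**
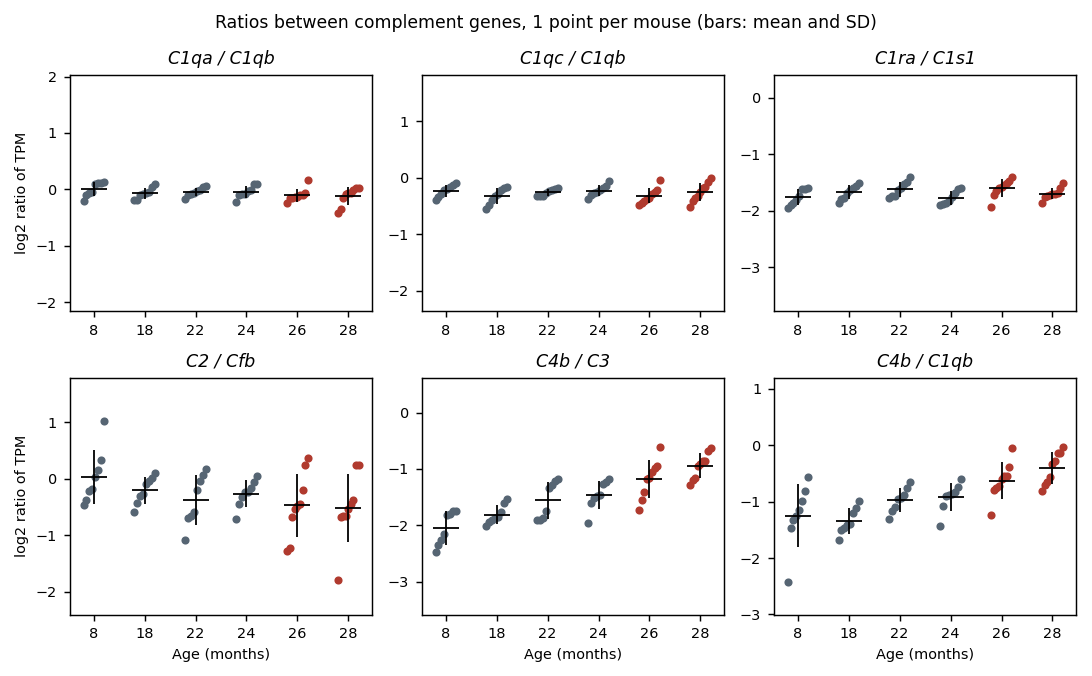
Log2 ratio of TPM (y axis, the same span of units in each panel) against age in months (x axis) for 6 pairs of complement genes, with 1 point per mouse and bars for mean and SD. C4b against C3 moves from a mean of -2.05 at 8 months to -0.95 at 28 months with no overlap, whereas the ratios among C1q chains and of C1ra to C1s1 stay within narrow bands.

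Mice of 1 age also differed from each other in these genes, and with all ages pooled they did so in common. With the mean of each age subtracted, log2 CPM values (normalized counts scaled to library size) were correlated over 50 mice for all 36 pairs of the 9 genes, with permutations within ages. All 36 coefficients were above 0, with a median of 0.65, and all 36 had an adjusted permutation p under 0.05, by Pearson's r and by Spearman's rho. Each member's median r with all other genes tested lay between -0.01 and 0.02. Values of both genes of a pair come from the same library. The closest pairs were the C1q chains. C1qa and C1qb had r = 0.95 (rho = 0.95, permutation p = 1e-05 for each, the smallest that 100000 permutations give; r = 0.95 without the 2 mice farthest from the median), and within single ages r lay between 0.92 and 0.98. C1qb and C1qc had r = 0.95, and C1qa and C1qc had r = 0.94 (rho = 0.95 and 0.93, permutation p = 1e-05 for each; r = 0.95 and 0.93 without 2 mice). C1ra and C1s1 had r = 0.84 (rho = 0.84, permutation p = 1e-05 for each; r = 0.82 without 2 mice), between 0.53 and 0.92 within single ages.

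C4b, C3 and Cfb also varied together. C4b and C3 had r = 0.78 (rho = 0.78; r = 0.75 without 2 mice), C3 and Cfb had r = 0.76 (rho = 0.73; 0.72 without 2 mice) and C4b and Cfb had r = 0.72 (rho = 0.74; 0.70 without 2 mice), each with a permutation p of 1e-05. Pairs of a C1q chain and another gene ran up to r = 0.73, for C1qa and C1ra (rho = 0.70, permutation p = 1e-05 for each; 0.69 without 2 mice; between 0.36 and 0.94 within single ages). C1qa and Cfb had r = 0.68 (rho = 0.68, permutation p = 1e-05 for each; 0.63 without 2 mice), between 0.48 and 0.81 within single ages. C1qb and C4b had r = 0.60 (rho = 0.63, permutation p = 2e-05 for each; 0.58 without 2 mice), but within single ages it lay between -0.16 and 0.86. C2 had its highest r with C4b at 0.66. Its lowest, also the lowest of the 36, was with C1qb at 0.33 (rho = 0.36, adjusted permutation p = 0.0157 for r). Within single ages this pair lay between -0.43 and 0.79, and C2 and C1qc between -0.39 and 0.86. C2 and Cfb, next to each other in the genome, had r = 0.38 (rho = 0.43, between -0.11 and 0.84 within single ages).

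**Figure D4:**
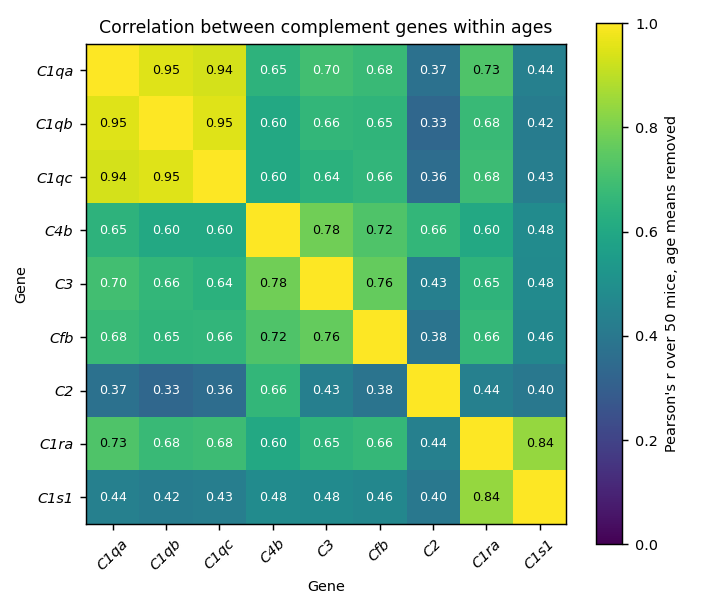
Pearson's r between each pair of complement genes (both axes list the 9 genes) over 50 mice, from log2 CPM with the mean of each age subtracted; the colour scale runs from 0 to 1. The C1q chains have the highest values (0.94 to 0.95), followed by C1ra with C1s1 (0.84), C4b with C3 (0.78), C3 with Cfb (0.76) and C1qa with C1ra (0.73), and the lowest is that of C2 with C1qb (0.33).

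The genes most like each member, by the same age-centred r over 50 mice and all genes tested, were often other complement genes. For C1qa and C1qb they were the other C1q chains and then Laptm5 (r = 0.84), a lysosomal protein of blood-derived cells, for C1qa, and Ctss (r = 0.87), a cathepsin of phagocytes, for C1qb. For C1qc the third was again Laptm5 (0.81). For C1ra the nearest was Serping1 (0.87), the gene of the C1 inhibitor that inactivates C1r and C1s, followed by C1s1 and by the close copy C1rb (0.81). For C1s1 they were C1ra, Serping1 (0.78) and Ace (0.76), the angiotensin-converting enzyme. For C4b they were its close copy C4a (0.91), C3 and Csf1r (0.77), the receptor for macrophage colony-stimulating factor. For C3 they were Cd300ld5 (0.79), C4b and Cd300ld3 (0.78), and for Cfb they were Cfp (0.78), the gene of properdin that stabilizes the alternative convertase, C3 and Ccl8 (0.74), a chemokine. The nearest genes to C2 were Tgfa (0.71), Trf (0.70) and C4b (0.66). Their order depended on the scale. With log2 TPM in place of log2 CPM, C4b ranked 1 for C2 (0.73), Trf ranked 2 (0.69) and Tgfa ranked 26 (0.61). The values of C4b with C4a and of C1ra with C1rb are set in part by reads the copies share.

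Of 57 further complement genes, listed by role, 56 had a row and 33 of these, in 34 rows, had enough counts to be tested. At 28 against 8 months 8 rows were called higher and 4 lower, and the median log2 fold change was 0.08 beside 0.0072 for all genes. These were 35.3% of the rows, against 39.6% of all genes. At 26 against 8 months 5 were higher and 3 lower, or 23.5% of the rows against 18.4% of all genes. At 28 against 22 months 4 were higher and 2 lower, or 17.6% against 27.7%. Among the receptors, Vsig4, a receptor for C3 fragments on resident macrophages, ran from 0 to 1.01 TPM at 8 months and from 1.27 to 9.05 TPM at 28 months, without overlap (log2 fold change 2.40, SE 0.36, FDR = 1.02e-06). Itgb2 and Itgam, which together make complement receptor 3, had log2 fold changes of 1.37 (FDR = 0.000169) and 1.26 (FDR = 0.00128; a row with another identifier gave 1.25), and 1 mouse of 28 months, replicate 2, held the highest values. C5ar1, the C5a receptor, was also higher (0.74, SE 0.23, FDR = 0.00595). Without that mouse, a fit chosen after seeing the data, Itgb2 (0.68, FDR = 0.00304) and Vsig4 (2.05, FDR = 5.17e-06) were still called, while Itgam (0.63, FDR = 0.0381), C5ar1 (0.49, FDR = 0.0511) and the regulator Cd59a (-0.39, FDR = 0.0186) were not, and 5 rows were called higher and 4 lower. Neutrophil markers were called higher at 28 against 8 months in 4 of 4 tested (3 without replicate 2), where 21% of all genes were called higher. Their summed level ran from 3.15 to 9.41 TPM at 8 months and from 13.5 to 280 TPM at 28 months, led by S100a9. The highest sum was again that of replicate 2, and the next was 59.3 TPM. The part of the neutrophil markers in the values of the receptors was not tested.

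Among the terminal components, which build the membrane attack complex, C6 ran from 0 to 0.516 TPM (median 0.0939) at 8 months and from 0.554 to 4.51 TPM (median 1.25) at 28 months. Its log2 fold change of 3.21 (SE 0.46, FDR = 4.29e-07) rests on very few counts at 8 months. C8g, the other terminal gene tested, was not called, and 4 terminal genes did not pass the filter on low counts. Of 12 regulators tested, 1 was called higher and 3 lower at 28 against 8 months. Among all genes tested, 39.6% were called in that comparison, 21% higher and 18.7% lower. Cd59b and Cd59a, membrane proteins that block the attack complex, fell by 0.92 (SE 0.19, FDR = 0.000102) and 0.42 (SE 0.13, FDR = 0.00805) on the log2 scale, and Vtn, encoding vitronectin, fell by 0.74 (SE 0.14, FDR = 3.91e-05), with 8 of 9 mice of 28 months below the lowest of 8 months. Serping1, the most abundant of the soluble regulators tested, was 123 ± 13.2 TPM at 8 months and 123 ± 16.4 TPM at 28 months and was not called (FDR = 0.485).

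Cfd, encoding factor D (adipsin), the adipocyte protease that activates factor B, ran from 63.1 to 264 TPM (median 186) at 8 months and from 60.0 to 143 TPM (median 83.4) at 28 months and fell by 1.11 (SE 0.31, FDR = 0.00265) on the log2 scale. Of 6 adipocyte markers tested, 4 were called lower and 1, Plin4, also present in muscle fibres, was called higher. Among all genes tested, 18.7% were called lower and 21% higher in that comparison. The summed level of the list, led by Plin4, had a median of 190 TPM at 8 months and 340 TPM at 28 months. The part of these markers in the values of Cfd was not tested. Cfp was not called (log2 fold change -0.06, FDR = 0.829). None of the 5 recognition and lectin pathway genes tested was called at 28 months, and the mannose-binding lectins Mbl1 and Mbl2 were listed at 0 in all 50 mice.

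**Figure D5:**
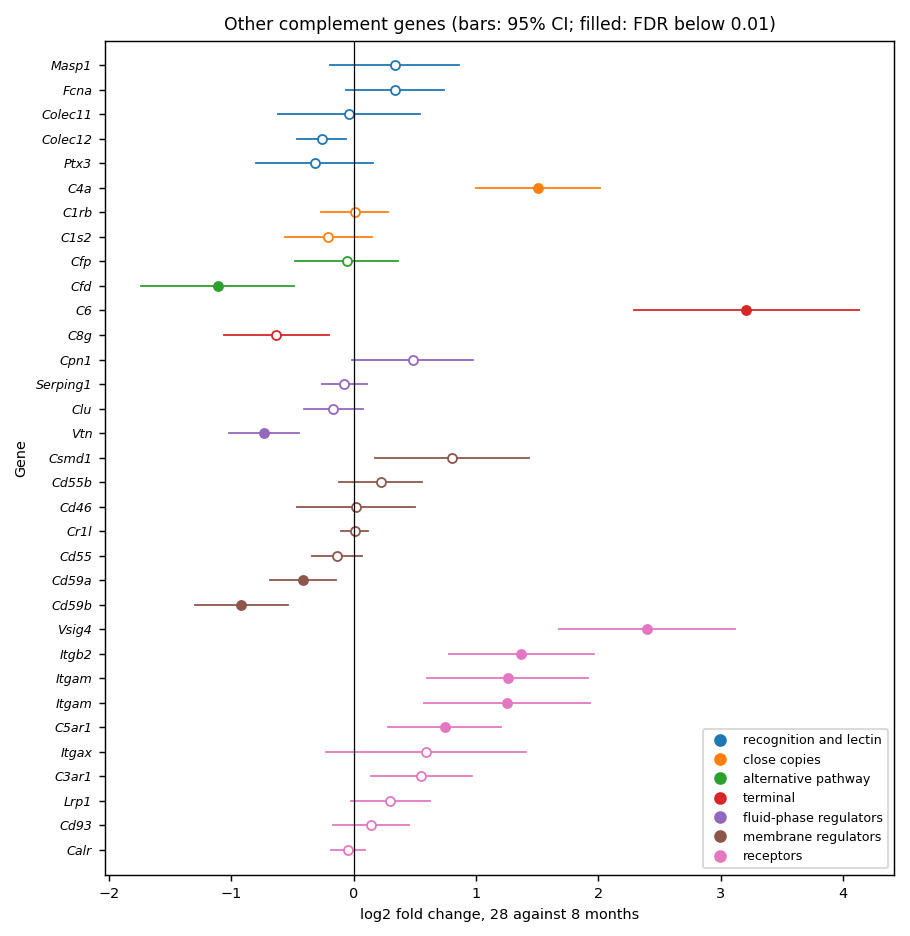
Log2 fold change from 8 to 28 months (x axis) with 95% confidence intervals for 33 of the 34 rows of other complement genes that were tested (y axis, grouped and coloured by role); filled points have an FDR below 0.01. Several receptors, C4a and C6 lie to the right, and Cfd, Vtn, Cd59a and Cd59b to the left.

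Acute-phase and cytokine genes are known to rise with the same inflammatory signals as C4, C3 and factor B. At 28 against 8 months 5 of 7 tested were called higher, where 21% of all genes were called higher. Orm1 and Hp had log2 fold changes of -0.16 and -0.68 and were not called. The cytokine genes Il6, Il1b and Tnf did not pass the filter on low counts. A shared signal was not tested. The summed level of the list ran from 49.3 to 124 TPM at 8 months and from 61.6 to 938 TPM at 28 months. Stat3 was the most abundant on average. Replicate 2 of 28 months, which also had the highest C1qa, C1qb, C1qc, C4b, C3 and Cfb of its age, had the sum of 938 TPM. Without this mouse the log2 fold changes from 8 to 28 months were 1.45 for C4b (FDR = 1e-06), 0.52 for C1qb (FDR = 0.0157) and 0.39 for Cfb (FDR = 0.141), so the call of C1qb was lost, and of the acute-phase and cytokine genes 4 were called higher and 1 lower. Of 15 interferon response genes tested, 1 was higher (none without replicate 2) and none lower, and their summed level ran from 58.3 to 85.2 TPM at 8 months and from 49.8 to 101 TPM at 28 months, led by Bst2.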

How the data were processed

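Gene counts and TPM of 50 libraries were analysed, each taken as 1 mouse as the methods describe, with ages and replicate numbers from the labels. The deposited counts were made by the authors with cutadapt 1.9.1 and kallisto 0.43.1 (as in the submitters' processing notes), on protein-coding Ensembl transcripts of GRCm38 with strand information. From the kallisto pseudoalignments, the authors gave each of n transcripts matched by a read an equal share of it, without an estimate of which was its source, so close copies share reads, and counts were summed per gene. The deposited TPM values were made by the authors from these counts and transcript lengths and sum to the same total in each library.

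Counts were tested with edgeR 4.0.16 (TMM factors, at least a CPM (library-scaled count) of 1 in at least 8 mice, 12586 of 23880 genes, quasi-likelihood test, Benjamini-Hochberg over all genes tested, FDR 0.01) in 1 fit over 6 ages. In simulated data this recovered most genes changed 2-fold. Smaller changes were also simulated, but their recovery is not given here, so a gene not called is not shown to be unchanged. The reads of no 2 libraries of 1 age agreed within sampling noise. Ratios used log2((TPM + 0.1)/(TPM + 0.1)) and correlations log2(CPM + 0.5). Alternatives used DESeq2 1.42.0, limma 3.58.1, other factors and filters, and leaving out mice. All 9 members are named. Of the other complement genes, those with the 5 highest and 5 lowest called log2 fold changes are named, and for each member the 3 genes with the highest r. Marker lists are given by count and sum. The values of 1 tested complement gene are not reported here, and it stays in the counts. The members and lists were chosen with earlier results of these data known. Intervals of fold changes come from the model, and p-values measure the spread between these mice.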

Additional observations from a re-analysis of the deposited data

Results flagged for a closer look

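In each of 54 groups, 1 for each member and age, the gap between the most extreme mouse and its nearest neighbour was divided by the range of the group, and 4 groups passed Dixon's 95% critical value, where chance alone gives about 1 in 20. Cfb was flagged at 18 months, where replicate 6 had 10.4 TPM and the next mouse 7.18 TPM, at 24 months, where replicate 1 had 9.91 TPM and the next 7.03 TPM, and at 28 months, where replicate 2 had 17.7 TPM and the next 11.2 TPM. C4b was flagged at 24 months, where replicate 1 had 35.1 TPM and the next mouse 24.3 TPM. Replicate 1 of 24 months was also the highest of its age for C1qa, C1qb, C1qc, C2 and C3, and replicate 6 of 18 months the highest of its age for C1qa, C1qb, C1s1, C2, C4b and C3. The 3 mice of 18 months with high C1q chains were not flagged, since the rule looks for a single mouse.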

How the results depend on the processing

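The members called kept within 1.5 times the count given, at all 10 comparisons of ages, with upper-quartile factors, no filter on low genes, DESeq2, limma on log2(TPM + 1) or log2(TPM + 0.1), only the 2 ages compared, and summed close copies (chosen after seeing the data). Leaving out 1 mouse in turn gave 3 to 5 members at 26 against 8 months and 1 to 4 at 28 against 8 months, as described above. The other complement genes called at 28 months numbered 7 with limma on log2(TPM + 1) in place of 12; the cause was not tested. The log2 fold change of C1ra at 26 against 8 months, 0.020, became -0.012 with upper-quartile factors and -0.019 with a replicate block, and lay between -0.038 and 0.076 without single mice. That of C2 at 28 against 8 months became 0.035 and 0.041 with limma (pseudocounts 1 and 0.1) and lay between -0.14 and 0.078 without single mice, and at 28 against 22 months it became 0.00134 and 0.00928 and lay between -0.17 and 0.086. That of Cfb at 28 against 22 months lay between -0.016 and 0.21 without single mice. None of these values was called. The call of Cfb at 26 months was lost in 6 of 8 other settings (FDR 0.00443 to 0.0318) and that of C1qb at 28 months with upper-quartile factors (FDR = 0.0108) and the block (FDR = 0.0105), while C1qa at 28 months passed with limma (FDR = 0.00904). Without single mice the log2 ratio of C1qc to C1qb lay between -0.056 and 0.0078, and that of C2 to Cfb between -0.65 and -0.39, with adjusted p from 0.0323 to 0.178 by the exact permutation test. Within 1 age, the lowest r was -0.43 for C2 and C1qb, -0.39 for C2 and C1qc and -0.17 for C2 and C1qa. It was -0.16 for C1qb and C4b and -0.11 for C2 and Cfb.

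Replicate numbers are shared between ages, but same-numbered mice of 8 and 28 months did not deviate together, with correlations of deviations from -0.16 to 0.18 over 8 pairs (median 0.0765). A fit with the number as a block called 4 members at 26 and 2 at 28 against 8 months. C2 and Cfb had the fewest counts (from 50 and 92 per mouse). The SE at 28 against 8 months was largest for Cfb (0.226), followed by C4b (0.207), C1qb (0.180) and C2 (0.178).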

Other observations

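Other cell type markers behaved as follows at 28 against 8 months, as context for the bulk values of the complement genes. Of the lymphocyte list only Jchain, a gene of plasma cells whose antibodies can engage C1q, passed the filter, and it was called higher with a log2 fold change of 2.70 (SE 0.57, FDR = 0.000129). The summed level of the 10 lymphocyte genes ran from 1.08 to 2.93 TPM at 8 months, from 1.24 to 23.0 TPM at 26 months and from 1.69 to 17.4 TPM at 28 months. Of 6 endothelial genes none was higher and 1 lower, and of 6 Schwann cell genes none was called. Of 5 erythroid genes 1 was higher, and of 8 muscle fibre genes 3 were higher (2 without replicate 2 of 28 months) and none lower. Among all genes tested, 21% were called higher and 18.7% lower in that comparison.

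Of the 23 further complement genes with a row that were not tested, 3 (Mbl1, Mbl2 and Apcs) were listed at 0 in all 50 mice and 21 stayed under 1 TPM in each mouse. With the age means removed, the summed macrophage markers had an r over 50 mice of 0.86 with C1qa, 0.84 with C1qb and 0.82 with C1qc, 0.77 with C4b, 0.74 with C3, 0.68 with Cfb, 0.67 with C1ra, 0.53 with C1s1 and 0.45 with C2. The summed fibroblast markers had 0.78 with C1s1 and 0.70 with C1ra, the summed endothelial markers 0.66 with C1s1 and 0.49 with C1ra, the summed interferon response genes 0.59 with C1ra and 0.53 with C1qa, the summed Schwann cell markers 0.56 with C2, and the summed acute-phase and cytokine genes 0.59 with C4b and 0.56 with Cfb. These coefficients describe genes measured in the same libraries and have no test.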
